A study of Mus musculus with 36 samples.

Results

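The 10 genes described here withhold iron and heme: Hamp, Slc40a1, Lcn2, Hp, Hpx, Tfrc, Fth1, Ftl1, Cp and Bmp6. They were taken by name from a table of 34829 Ensembl genes in which 34406 identifiers matched a mouse symbol, and all 10 were found. Liver RNA came from 36 samples of C57BL6/J mice, an inbred strain. The mice lived at 22 °C, ordinary room temperature, or at 30 °C, close to the temperature at which a mouse spends no extra energy on warmth. Livers were taken 0, 4, 12 or 24 h after lipopolysaccharide (LPS), the outer-membrane molecule of Gram-negative bacteria to which the innate immune system reacts as to an infection. The groups at 22 °C held 4, 4, 5 and 5 samples in that order of times, and those at 30 °C held 5, 4, 4 and 5. Every later group carried LPS and the labels name no group without it at 4, 12 or 24 h, so LPS, the injection and the hours passed cannot be told apart in a change since 0 h. Whether each sample was its own mouse is not stated, so the p-values reflect only the spread among the samples, which may be technical. No sex, age or LPS dose is stated in the labels.

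Bacteria need iron, and mammals answer infection by moving it out of reach. The liver hormone hepcidin, encoded by Hamp, binds ferroportin, the iron exporter encoded by Slc40a1, and removes it from the cell surface, so that iron stays inside macrophages, hepatocytes and the gut wall. Interleukin 6 (IL-6) switches Hamp on through the transcription factor STAT3, and bone morphogenetic proteins (BMPs), above all BMP6 from liver endothelial cells, set its level through SMAD proteins. Around this axis, lipocalin 2 (Lcn2) captures the iron carriers that bacteria secrete, haptoglobin (Hp) and hemopexin (Hpx) clear free hemoglobin and free heme from plasma, ceruloplasmin (Cp) oxidises iron for loading onto transferrin, and ferritin (Fth1 and Ftl1) stores it. Transferrin receptor 1 (Tfrc) takes it up.

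The value used is the authors' scaled reads per base, a deposited signal that serves here to compare a gene with itself between samples and not 1 gene with another. Libraries held 556798 to 2744275 estimated reads (median 1009394), and 3 reads corresponded to a signal of 1.33 to 5.05 depending on the library. Differences are limma estimates on log2(signal + 1), given ± SE, with Benjamini-Hochberg adjustment over the 8702 genes that had a mean signal of at least 5, and a gene is said to have risen or fallen where its adjusted p was under 0.05. Of the 10 genes, 9 passed this filter on the mean over all samples, and Bmp6 did not. The libraries carried the liver's own RNA: the summed signal of 7 hepatocyte markers ran from 11400.0 to 37785 over all of them. The library labelled 30 °C, 4 h, replicate 4 stood apart, with 14.2% of its signal in Gm10800 against 0.0146% to 0.798% elsewhere. Its median correlation with its group was 0.796 against 0.839 to 0.928 for the others. Some results of Hamp, Slc40a1, Hp, Cp and Ftl1 that involve it are also given without it. The other values that rest on the group at 30 °C and 4 h include it.

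The sequences that tie these genes to their known regulators are shown first. Hamp (ENSMUSG00000050440, chr7:30942368-30944032 on the minus strand, GRCm38) has a neighbouring near-copy, Hamp2 (ENSMUSG00000056978, chr7:30922372-30924681, minus strand), also a liver transcript, and the 200 bases upstream of each start are given because the pair moved apart. They come from RefSeq (GRCm38.p6), chr7:30944030-30944229 and chr7:30924182-30924381, both minus strand, written 5′ to 3′, and capitals mark the letters TTCNNNGAA, to which STAT proteins bind, and GGCGCC, the core of the BMP response element.
Hamp promoter: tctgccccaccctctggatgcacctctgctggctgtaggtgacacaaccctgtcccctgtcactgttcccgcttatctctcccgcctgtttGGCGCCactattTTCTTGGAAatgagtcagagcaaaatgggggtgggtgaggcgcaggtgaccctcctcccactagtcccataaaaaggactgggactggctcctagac
Hamp2 promoter: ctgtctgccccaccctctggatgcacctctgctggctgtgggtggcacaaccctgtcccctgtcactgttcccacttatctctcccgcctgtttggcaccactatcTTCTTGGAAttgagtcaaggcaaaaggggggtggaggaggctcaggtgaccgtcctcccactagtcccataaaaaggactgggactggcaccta
The STAT letters are the same TTCTTGGAA in both, from -97 to -89 in Hamp and from -94 to -86 in Hamp2, counted from the start. The BMP letters GGCGCC stand at -109 to -104 in Hamp, and in Hamp2 the same stretch carries G4A, counted from 1 at the first base of the motif. The 250 bases before the start were 91.9% identical between the genes (227 of 247 aligned bases). Both strands were searched: of 32851 RefSeq promoter windows of 300 bases, 8.30% held TTCNNNGAA and 11.9% held GGCGCC. Of the 8 of these 10 genes with a window in that table, Hamp held the STAT letters, and Hamp and Tfrc held the BMP letters. A match of letters is a description and not a measured binding site.

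Ferritin, ferroportin and transferrin receptor messages are also controlled after transcription by iron-responsive elements (IREs), hairpins bound by iron-regulatory proteins, which block translation from the 5′ end and protect the message from decay at the 3′ end. The elements are shown because these 4 genes carry that control. The 5′ elements act on translation, and the 3′ elements of Tfrc act on the RNA level through decay. They were found on the coding strand as a C, any 5 bases and CAGTG, with 5 paired bases on either side of the 6-base loop, in GENCODE M21 transcripts (GRCm38), and capitals mark the bulged C and the 6-base loop.
Fth1 5′ element: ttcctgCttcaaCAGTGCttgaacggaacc
Ftl1 5′ element: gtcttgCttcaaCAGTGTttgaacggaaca
Slc40a1 5′ element: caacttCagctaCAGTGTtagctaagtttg
Tfrc 3′ element, the first of 4: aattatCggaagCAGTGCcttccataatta
Tfrc 3′ element, the second of 4: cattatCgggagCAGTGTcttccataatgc
Tfrc 3′ element, the third of 4: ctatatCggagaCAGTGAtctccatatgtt
Tfrc 3′ element, the last of 4: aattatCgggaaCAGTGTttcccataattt
The Fth1 element lies at chr19:9982732-9982761 on the plus strand, that of Ftl1 at chr7:45459778-45459807 on the minus strand and that of Slc40a1 at chr1:45925464-45925493 on the minus strand, each in the 5′ untranslated region. The 4 elements that this search found in Tfrc lie in its 3′ untranslated region on the plus strand, from chr16:32631219-32631248 to chr16:32631710-32631739. An element that departs from these letters or from the 5 paired bases would be missed, so the 4 need not be all of them. The same search matched 0.151% of 20580 genes in the 5′ region and 0.615% of 20978 in the 3′ region.

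Most of the 9 tested genes had changed since 0 h at both temperatures. At 4 h, 5 rose (Hamp, Lcn2, Hp, Hpx and Cp) and 2 fell (Slc40a1 and Ftl1) at each temperature, beside 15.8% of all tested genes up and 13.6% down for 22 °C, and 17.8% up and 14.6% down for 30 °C. By 12 h the 22 °C groups showed 6 up and 2 down (20.7% and 20.6% of all genes), and the 30 °C groups 4 up and 2 down (19.3% and 18.9%). By 24 h there were 5 up and 1 down at 22 °C (19.0% and 18.0%) against 6 up and none down at 30 °C (15.3% and 14.4%). The median log2 difference of the 9 genes since 0 h was 1.29, 0.90 and 0.56 at 22 °C and 1.41, 0.69 and 1.38 at 30 °C, against medians between -0.10 and 0.03 over all tested genes. Between 4 and 12 h, 3 genes went up and none down at 22 °C (11.9% and 14.4% of all genes), against 2 up and 3 down at 30 °C (12.3% and 17.9%). Between 12 and 24 h it was 1 up and 1 down at 22 °C (4.02% and 6.6%) against 5 up and none down at 30 °C (11.6% and 9.52%).

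The 2 temperatures were alike at the start as far as the test could see. Before LPS none of the 9 genes differed between 30 °C and 22 °C in limma, 1 of them at an unadjusted p under 0.05, beside 0.506% of all tested genes. At 4 h it was again none, 1 at an unadjusted p under 0.05, beside 0.207%. Differences appeared at 12 h for Hamp and Cp and at 24 h for Hamp, Slc40a1 and Cp, and are given gene by gene.

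**Figure D1:**
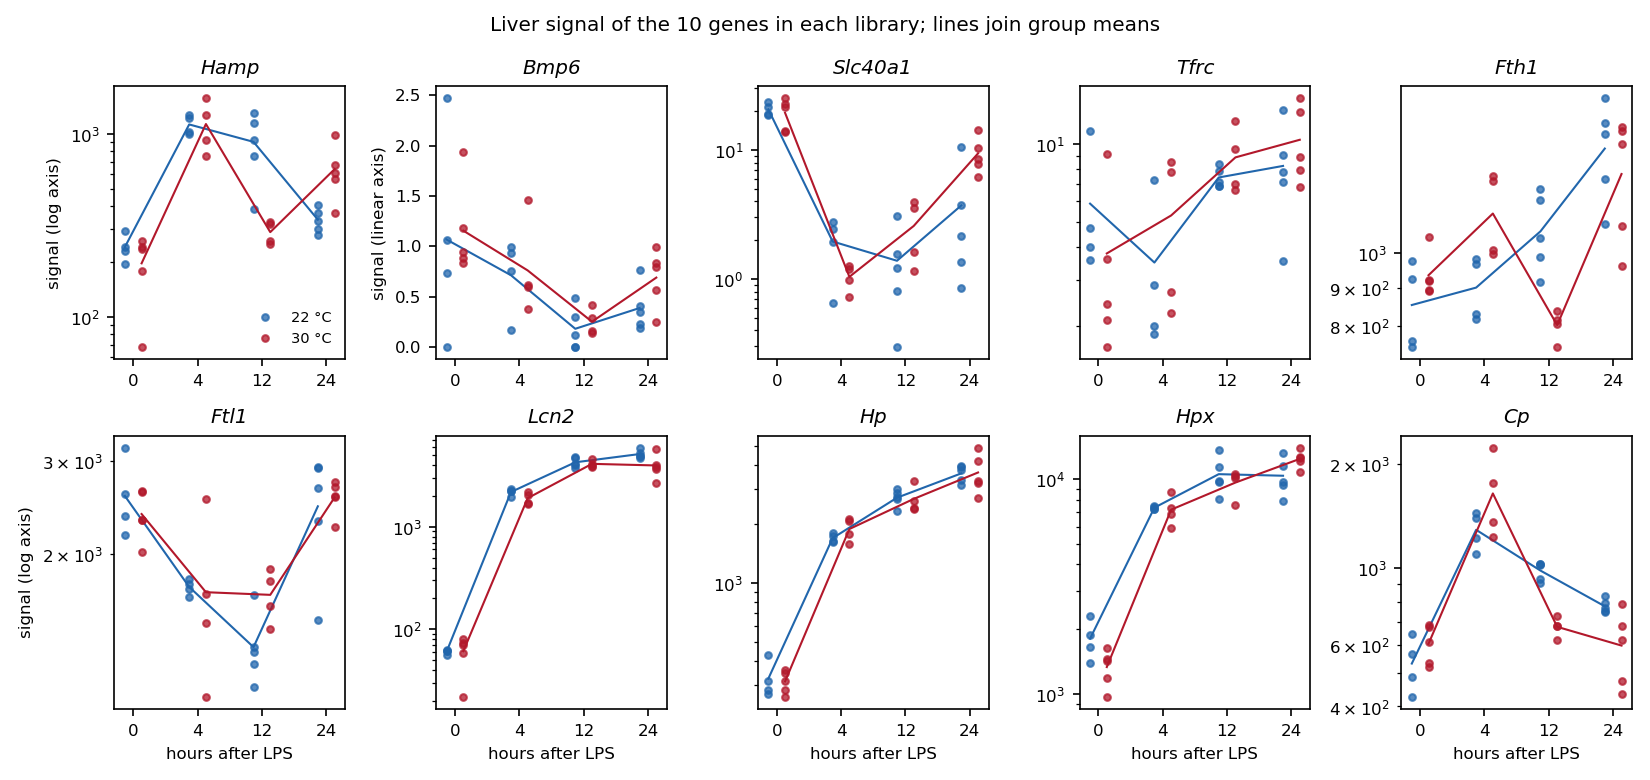
Signal of the 10 genes in each of 36 libraries (points; log axes except for Bmp6) against hours after LPS, at 22 °C (blue) and 30 °C (red), with lines through group means. Hamp peaked at 4 h in both and then parted, with all 4 libraries at 30 °C and 12 h below all 5 at 22 °C, while Slc40a1 dropped at 4 h and stood higher at 30 °C than at 22 °C on average at 24 h.

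Hamp, the hepcidin gene, rose by 4 h at both temperatures and then changed in opposite directions between 12 and 24 h. Before LPS its signal was 194, 229, 241 and 295 in the 4 libraries at 22 °C and 68.4, 177, 234, 240.3 and 258 in the 5 at 30 °C. At 4 h it was 993, 1018, 1209.6 and 1267 at 22 °C and 757, 928, 1270.2 and 1557 at 30 °C. Every library at 4 h was above every library at 0 h, and the temperatures overlapped at both times. The rise was 2.23 ± 0.32 at 22 °C (adjusted p = 1.4e-06) and 2.61 ± 0.31 at 30 °C (adjusted p = 2.2e-08), and 2.78 ± 0.33 without the library that stood apart.

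At 12 h Hamp was still high at 22 °C, at 385, 758, 923, 1147 and 1293, and was 248, 260.2, 322 and 328 at 30 °C. Against 0 h this was 1.81 ± 0.31 at 22 °C (adjusted p = 1.4e-05) and 0.69 ± 0.31 at 30 °C (adjusted p = 0.075, past the threshold without replicate 2 at 0 h). The 30 °C value was 0.35 ± 0.27 (adjusted p = 0.33) without replicate 5 at 0 h, the low one, and passed with upper-quartile (0.80, adjusted p = 0.035) or equal-sum rescaling (0.78, adjusted p = 0.046). The lowest library at 22 °C was above the highest at 30 °C. The difference, 30 °C minus 22 °C, was -1.53 ± 0.31 (adjusted p = 0.0024), with means of 289 ± 41.1 (SD, n = 4) and 901 ± 354 (n = 5). It ran from -1.81 to -1.37 when each library was left out in turn. At this time 2 of the 9 genes were lower at 30 °C and none higher, beside 3.29% of all tested genes lower and 0.977% higher. Hepatocyte markers moved the same way: the sum of the 7 was 11400.0 to 14662 at 30 °C against 13873 to 22792 at 22 °C, and 2 of the 7 were lower and none higher, and their part in the Hamp value was not tested. The total signal of a library was also lower, 828054 to 917457 at 30 °C against 1025510 to 1131968 at 22 °C. With libraries rescaled to equal sums the Hamp difference was -1.24 (adjusted p = 0.015). In bulk tissue fewer cells of a type and less RNA per cell cannot be told apart.

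By 24 h the order had turned. Hamp stood at 281, 301, 331, 369.8 and 409.8 at 22 °C and at 368, 567, 609.5, 669 and 982 at 30 °C, where 4 of 5 libraries were above every library at 22 °C and the lowest lay within their range. The difference was 0.86 ± 0.29 (adjusted p = 0.036), with an exact permutation p of 0.024 for Hamp alone. Between 12 and 24 h Hamp fell at 22 °C (-1.31 ± 0.29, adjusted p = 0.0023) and rose at 30 °C (1.08 ± 0.31, adjusted p = 0.011). Relative to 0 h it was 0.50 ± 0.31 at 22 °C (adjusted p = 0.21) and 1.77 ± 0.29 at 30 °C (adjusted p = 1.2e-05), and the difference between these changes missed the threshold (1.27 ± 0.42, adjusted p = 0.053, 0.026 to 0.11 over left-out libraries, and past it without replicate 1, 2 or 3 at 30 °C and 0 h, replicate 2 at 30 °C and 24 h or replicate 5 at 22 °C and 24 h). The 24 h call is close to the threshold: leaving out 1 library gave adjusted p of 0.014 to 0.12, and it was lost without the filter on low values, without 22 °C replicate 1, 3 or 4 or without 30 °C replicate 1, 3, 4 or 5. The 7 hepatocyte markers summed to 12644 to 18367 at 30 °C and 12690.2 to 18003 at 22 °C at 24 h. Of these 7, 3 were higher at 30 °C and none lower, beside 9.93% and 8.71% of all tested genes. Hamp at 30 °C also had 1 low library before LPS, replicate 5 at 68.4, without which the change by 24 h there was 1.43 ± 0.26.

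Hamp2 did not share the rise of Hamp and later fell far below its starting level. Its signal before LPS was 464, 594, 904 and 1341 at 22 °C and 757, 841, 884, 1409.6 and 1519.6 at 30 °C, and at 4 h it was 891 ± 199.9 (SD, n = 4) and 942 ± 185 (n = 4), with log2 differences since 0 h of 0.20 ± 0.45 (adjusted p = 0.78) and -0.16 ± 0.43 (adjusted p = 0.81). At 12 h it was 281 ± 148 at 22 °C (n = 5) and 215 ± 100.2 at 30 °C (n = 4), falls of -1.70 ± 0.43 (adjusted p = 0.0017) and -2.36 ± 0.43 (adjusted p = 3.2e-05). By 24 h it stood at 50.6, 98.0, 169, 169.7 and 226 at 22 °C and at 18.0, 19.3, 25.8, 33.6 and 51.4 at 30 °C. The falls since 0 h were -2.58 ± 0.43 (adjusted p = 9.8e-06) and -5.19 ± 0.40 (adjusted p = 2.4e-12), and they differed by -2.61 ± 0.59 (adjusted p = 0.0041). At 24 h 1 library at 30 °C, the highest, reached the lowest at 22 °C, and the difference between temperatures was -2.16 ± 0.40 (adjusted p = 2.0e-04). On average over the same 5 libraries at 30 °C, Hamp was higher and Hamp2 lower than at 22 °C, though for both genes the ranges at the 2 temperatures overlapped.

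The signal of Hamp as a share of the summed signal of the pair, compared between libraries, was larger in every group after LPS than before. It was 18.0% to 34.2% at 22 °C and 7.52% to 21.4% at 30 °C before LPS, and 51.1% to 65.3% and 44.0% to 64.4% at 4 h. At 12 h it was 71.6% to 86.5% and 47.4% to 64.0%, and at 24 h 62.3% to 88.0% and 95.0% to 97.1%. The ranges at the 2 temperatures overlapped at 0 and 4 h and parted at 12 and 24 h, in opposite directions. The transcripts of the pair are 94.6% identical and share 33.7% of the 31-base words of Hamp, and kallisto divides reads that match both, so how much of each value is shared reads is not known. When the pair was summed, a choice made after seeing the data, the sum rose at 4 h at 22 °C (0.99 ± 0.31, adjusted p = 0.014), missed the threshold at 30 °C (0.73 ± 0.29, adjusted p = 0.054), and was below its 0 h level by 24 h at both (-1.08 ± 0.29, adjusted p = 0.0036, and -0.95 ± 0.28, adjusted p = 0.0088). At 12 h the sum was still lower at 30 °C (-1.13 ± 0.29, adjusted p = 0.020), and at 24 h it no longer passed (0.42 ± 0.28, adjusted p = 0.32).

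**Figure D2:**
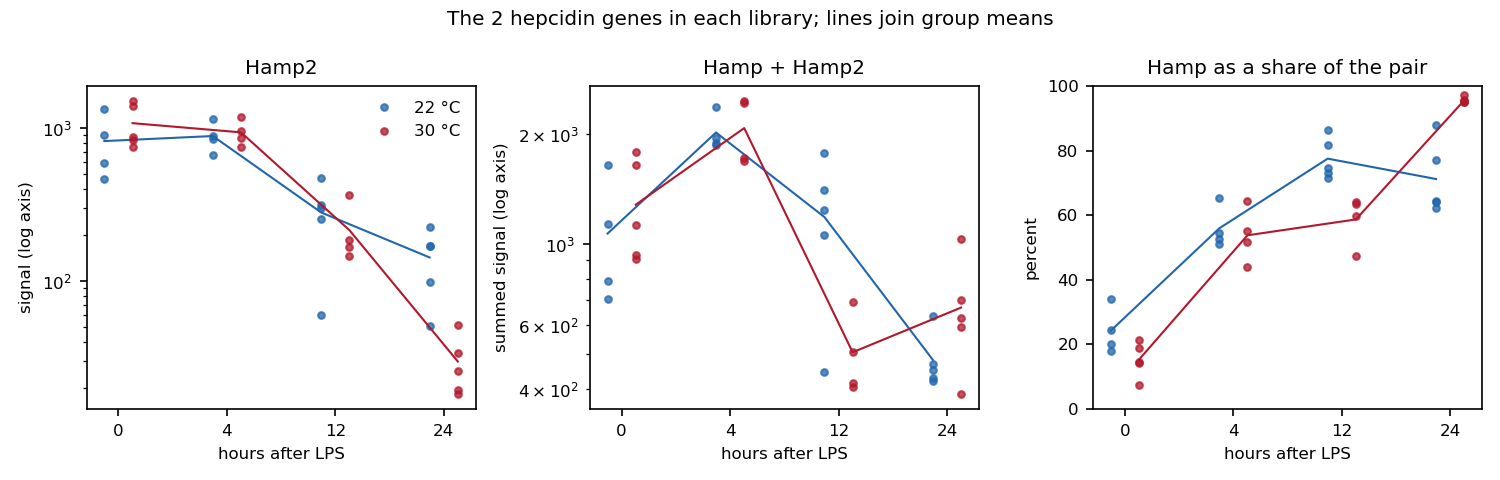
Signal of Hamp2 (left, log axis), the sum of Hamp and Hamp2 (middle, log axis) and Hamp as a percent of that sum (right) in each library against hours after LPS, at 22 °C (blue) and 30 °C (red); lines join group means. At 24 h the share of Hamp was 95.0% to 97.1% at 30 °C and 62.3% to 88.0% at 22 °C.

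Slc40a1 (chr1:45908068-45926523, minus strand), the exporter that hepcidin acts on, fell after LPS at both temperatures and rose again by 24 h at 30 °C. Its signal before LPS was 18.8, 18.9, 21.5 and 23.5 at 22 °C and 13.9, 14.1, 21.4, 22.7 and 25.1 at 30 °C. At 4 h it was 0.650, 1.95, 2.43 and 2.78 at 22 °C and 0.720, 0.977, 1.20 and 1.27 at 30 °C, so that 7 of these 8 libraries were under 3 reads. No library at 4 or 12 h overlapped any at 0 h. The fall at 4 h was -2.94 ± 0.43 (adjusted p = 1.5e-06) and -3.29 ± 0.41 (adjusted p = 5.9e-08), and -3.33 ± 0.45 without the library that stood apart. These sizes depend on the 1 added before the log. The mean of Slc40a1 over the 36 libraries, 7.63, passed the filter of 5 through the groups where it was high. The group means were 20.7 and 19.4 at 0 h and 1.95 and 1.04 at 4 h, at 22 °C and 30 °C. In exact permutation tests, which use no filter, the falls at 4 h had p of 0.057 and 0.044 adjusted over 14 contrasts. At 12 h the values were 0.298, 0.802, 1.21, 1.56 and 3.06 at 22 °C, with 4 libraries under 3 reads, and 1.16, 1.63, 3.54 and 3.98 at 30 °C, with 2.

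At 24 h Slc40a1 was 0.856, 1.35, 2.16, 3.73 and 10.5 at 22 °C and 6.22, 7.72, 8.50, 10.4 and 14.2 at 30 °C. All 5 libraries at 30 °C exceeded 4 of the 5 at 22 °C, and the remaining one at 22 °C, replicate 5, lay among them. The difference between temperatures was 1.42 ± 0.38 (adjusted p = 0.0080), and 1.83 ± 0.36 without that library. It lost its call in a fit of the 2 groups alone and in an exact permutation test (p = 0.040, adjusted over 14 contrasts of this gene 0.069). Between 12 and 24 h Slc40a1 rose at 30 °C (1.58 ± 0.41, adjusted p = 0.0047), and at 22 °C the change was 0.76 ± 0.38 (adjusted p = 0.22). Against 0 h it was still lower at 22 °C (-2.52 ± 0.41, adjusted p = 6.5e-06), and at 30 °C it was -0.98 ± 0.38 (adjusted p = 0.052, past the threshold without replicate 2 or 3 at 0 h or replicate 2 at 24 h). The difference between these changes was 1.54 ± 0.56 (adjusted p = 0.081), or 1.95 ± 0.50 (adjusted p = 0.0099) without replicate 5 at 22 °C.

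Ferroportin is abundant in Kupffer cells, the resident liver macrophages, and several of their markers fell in the same samples. Of 8 markers, 3 fell at 4 h, 5 at 12 h and 6 at 24 h at 22 °C, and 4, 5 and 4 at 30 °C. Of all tested genes, 13.6%, 20.6% and 18.0% fell at these times at 22 °C, and 14.6%, 18.9% and 14.4% at 30 °C. Marco, a scavenger receptor, rose at all of these times (2.58 ± 0.42 at 22 °C and 2.65 ± 0.39 at 30 °C by 24 h), opposite to Slc40a1. The summed signal of 8 Kupffer cell markers was 170.1 to 314 at 22 °C and 224 to 283 at 30 °C before LPS, and averaged 121 and 129 at 4 h. At 12 h it was 57.5 to 86.5 and 64.6 to 85.8, and at 24 h 49.5 to 110.2 and 92.9 to 136. At 24 h 1 of the 8 markers, Cd163, was higher at 30 °C and none was lower, beside 9.93% and 8.71% of all tested genes. None of the 8 was at 0 in every library of a group. The part of Kupffer cells in the Slc40a1 values was not tested. Depth moved too, from 856384 ± 58147 estimated reads at 22 °C (SD, n = 5) to 1425288 ± 599893 at 30 °C (n = 5) at 24 h, and its part was not tested.

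Hepcidin's upstream ligand could not be followed. Bmp6 (chr13:38345107-38500302, plus strand) was under 3 reads in all 36 libraries, with signals of 0 to 2.47. The group means were highest before LPS, at 1.07 ± 1.04 (SD, n = 4) for 22 °C and 1.15 ± 0.456 (n = 5) for 30 °C, and lowest at 12 h, 0.179 ± 0.210 (n = 5) and 0.250 ± 0.125 (n = 4). Endothelial cells, the main source of BMP6 in liver, had marker sums of 349 to 397 and 368 to 401 before LPS and 182 to 295 and 158 to 218 at 12 h (8 markers). Of these, Clec4g was at 0 throughout the group at 22 °C and 24 h. The part of these cells was not tested. In exact permutation tests, two-sided, the smallest p over 14 contrasts was 0.016 for 12 h against 0 h at 30 °C, the smallest that 4 against 5 libraries can give, and it became 0.18 after adjustment. A change in Bmp6 was not detectable at this depth.

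Lcn2 (chr2:32384633-32388252, minus strand), the siderophore-binding protein, had the largest rise of the 9 tested genes at every time and at both temperatures. It went from 56.4, 61.3, 61.7 and 63.7 at 22 °C and 22.2, 59.5, 71.1, 73.6 and 80.8 at 30 °C to 1939, 2216, 2229 and 2301 and 1659, 1709, 2023 and 2176 at 4 h. By 12 h the means were 4224 ± 439.7 (SD, n = 5) for 22 °C and 4080.2 ± 331 (n = 4) for 30 °C. The ratio of group means to 0 h was 35.7 and 30.8 at 4 h and 83.6 and 64.1 at 24 h, at 22 °C and 30 °C. No library after LPS overlapped any library before it. The low value of 22.2 before LPS at 30 °C came from replicate 4. At 24 h the values were 4686, 4848, 4882, 5208 and 5786 at 22 °C and 2631, 3603, 3808, 3985 and 5649.6 at 30 °C, a difference of -0.41 ± 0.21 (adjusted p = 0.18). The interaction at 24 h was -0.30 ± 0.30 (adjusted p = 0.60), and -0.63 ± 0.20 (adjusted p = 0.043) without that low library, so 1 library decided on which side of the threshold it fell.

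Neutrophils also make lipocalin 2, and their markers rose in the same samples. The summed signal of 11 neutrophil and monocyte markers was 8.70 to 9.46 at 22 °C and 8.55 to 15.2 at 30 °C before LPS, and 68.8 to 106 and 93.6 to 129 at 4 h. At 12 h it was 191 to 321 and 300.3 to 519, and at 24 h 108 to 285 and 159.9 to 333. Of the 11, 3 were abundant enough to test, and S100a8 and S100a9 rose at every time at both temperatures, beside 15.3% to 20.7% of all tested genes. The filter used the mean over all samples, so markers that were high only after LPS could pass it through those groups. A rise was thus favoured by the choice of markers tested. Elane, a marker of immature neutrophils, was at 0 in every library, Mpo was at 0 throughout 4 of the 8 groups, and Ly6g was at 0 throughout both groups before LPS. The part of these cells in the Lcn2 signal was not tested.

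Hp and Hpx, the plasma carriers of free hemoglobin and free heme, rose at every time. Hp (chr8:109575128-109579172, minus strand) was 269, 284, 314 and 427 at 22 °C and 262, 283, 316, 345 and 359.9 at 30 °C before LPS. It was 1686 ± 83.8 and 1876 ± 257 at 4 h (SD, n = 4 each) and 2711 ± 258 (n = 5) and 2672 ± 432 (n = 4) at 12 h, and reached 3161, 3336, 3735, 3896 and 3911 and 2693, 3239.8, 3296, 4151 and 4846 at 24 h. Its changes since 0 h were 2.40 ± 0.16, 3.08 ± 0.15 and 3.49 ± 0.15 at 22 °C and 2.58 ± 0.15, 3.09 ± 0.15 and 3.52 ± 0.14 at 30 °C. Its later steps at 30 °C were small: 0.51 ± 0.16 from 4 to 12 h (adjusted p = 0.013, and 0.053 without the library that stood apart; lost also without replicate 1 at 12 h) and 0.43 ± 0.15 from 12 to 24 h (adjusted p = 0.035, and 0.0092 to 0.13 with each library left out, lost without replicate 2, 3 or 4 at 12 h or 1 or 5 at 24 h). The temperatures overlapped at every time, and the difference at 24 h was -0.01 ± 0.14 (adjusted p = 0.97).

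Hpx (chr7:105591613-105600137, minus strand) started at 1399, 1645, 1883 and 2299 at 22 °C and 971, 1183, 1427, 1448 and 1636 at 30 °C. It was 7340.5 ± 144 and 7185 ± 1154 at 4 h (SD, n = 4 each) and 10506 ± 2123 (n = 5) and 9603 ± 1357 (n = 4) at 12 h. It reached 7851, 9377, 9682, 11503 and 13239 and 10783, 12106, 12445, 12657 and 13863 at 24 h. The 30 °C mean was lower before LPS (-0.44 ± 0.16, adjusted p = 0.32) and higher at 24 h (0.28 ± 0.15, adjusted p = 0.22), and neither difference passed by itself. From 4 to 12 h at 22 °C it rose by 0.49 ± 0.16 (adjusted p = 0.022), lost without replicate 1 at 4 h or 5 at 12 h (adjusted p 0.0098 to 0.081 over the libraries left out). The rise by 24 h was 2.52 ± 0.16 at 22 °C and 3.23 ± 0.15 at 30 °C, and the difference between these rises, 0.72 ± 0.22, passed (adjusted p = 0.039), the only such call among the 9 genes beside 8.95% of all tested genes. At 4 and 12 h none of the 9 interactions passed in limma (0 and 3 at an unadjusted p under 0.05), beside 0.0115% and 0.276% of all genes. It did not hold without 9 of the 19 libraries, each left out alone (adjusted p 0.015 to 0.11 over all 19). They were, at 22 °C, replicates 2 and 4 at 0 h and 1, 2 and 3 at 24 h, and at 30 °C, replicates 3 and 4 at 0 h and 3 and 5 at 24 h.

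Cp (chr3:19957054-20009145, plus strand), the plasma ferroxidase, rose by 4 h at both temperatures and was lower at 30 °C than at 22 °C at 12 and 24 h. Its signal was 427, 485, 568 and 647 at 22 °C and 520.3, 535, 615, 676 and 685 at 30 °C before LPS and 1101, 1226, 1392 and 1442 and 1229.9, 1359, 1763 and 2215 at 4 h. The rise was 1.29 ± 0.17 and 1.41 ± 0.16, and 1.25 ± 0.16 at 30 °C without the library that stood apart, which was the highest of its group. At 12 h the values were 908, 933, 1023, 1029 and 1030.1 at 22 °C and 621, 681, 681 and 731 at 30 °C. The groups did not overlap, and Cp was lower at 30 °C (-0.54 ± 0.16, adjusted p = 0.042), though leaving out any of the 9 libraries put the adjusted p at 0.053 to 0.13. The difference shrank to -0.25 (adjusted p = 0.38) with libraries rescaled to equal sums and was -0.44 (adjusted p = 0.087) with upper quartiles. Between 4 and 12 h Cp fell at 30 °C (-1.24 ± 0.17, adjusted p = 4.5e-07) and changed by -0.38 ± 0.16 at 22 °C (adjusted p = 0.068, past the threshold without replicate 2 at 4 h). The change since 0 h did not pass as different between temperatures at 12 h (-0.73 ± 0.22, adjusted p = 0.13).

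At 24 h Cp was 747, 751, 766, 792 and 829.8 at 22 °C, a narrow range, and 434, 475, 619.5, 679.8 and 787 at 30 °C. It was still above its 0 h level at 22 °C (0.56 ± 0.16, adjusted p = 0.0045) and -0.04 ± 0.15 from it at 30 °C (adjusted p = 0.86). The difference between temperatures was -0.41 ± 0.15 (adjusted p = 0.049), and leaving out 1 library gave adjusted p of 0.016 to 0.17, with the call kept only without 30 °C replicate 1 or 3. The interaction was -0.61 ± 0.22 (adjusted p = 0.073, past the threshold without replicate 3 at 22 °C and 0 h or replicate 1 at 30 °C and 24 h). At 24 h 3 of the 9 genes thus differed between temperatures, Hamp and Slc40a1 higher and Cp lower at 30 °C, beside 9.93% of all tested genes higher and 8.71% lower.

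**Figure D3:**
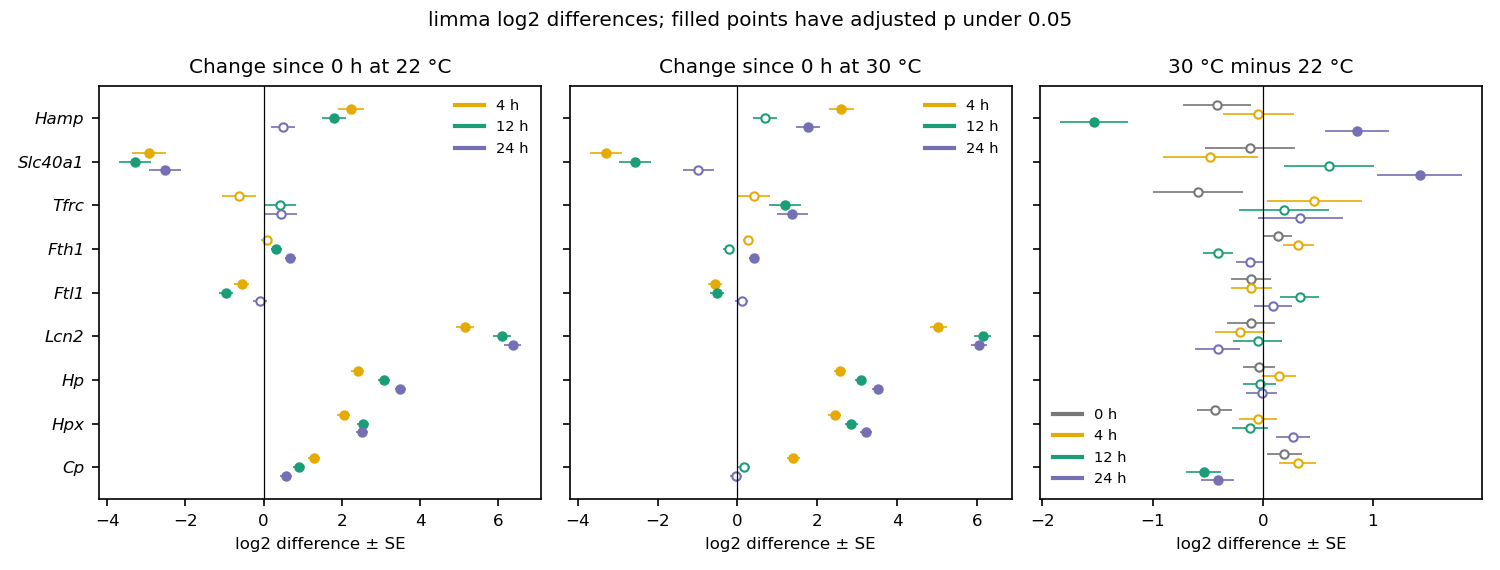
Log2 differences ± SE for the 9 tested genes: since 0 h at 22 °C (left), since 0 h at 30 °C (middle) and 30 °C minus 22 °C (right), coloured by time; filled points have a limma adjusted p under 0.05. The right panel has 5 filled points: Hamp and Cp at 12 h, and Hamp, Slc40a1 and Cp at 24 h.

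The ferritin subunits followed different courses. Fth1 (chr19:9980598-9985098, plus strand), the heavy chain that oxidises iron for storage, was 751, 764, 924 and 975 at 22 °C and 892, 893, 918, 922 and 1049.5 at 30 °C before LPS. At 4 h it was 819, 831, 967 and 983 and 996, 1009, 1246 and 1265, which do not overlap, with a difference of 0.32 ± 0.14 that missed the threshold (adjusted p = 0.51). By 24 h it was 1094, 1256, 1439.5, 1489 and 1605 and 963, 1087, 1396, 1453 and 1471, a rise of 0.69 ± 0.13 (adjusted p = 8.3e-05) and 0.43 ± 0.12 (adjusted p = 0.0085). A small rise by 12 h at 22 °C (0.33 ± 0.13, adjusted p = 0.046) was lost without any 1 of replicates 2 and 3 at 0 h and 2, 4 and 5 at 12 h (adjusted p 0.029 to 0.15 over the libraries left out). At 22 °C no library at 24 h overlapped 0 h, and at 30 °C the lowest of 24 h lay within the range of 0 h and the call was lost with equal sums. At 30 °C Fth1 fell between 4 and 12 h (-0.48 ± 0.14, adjusted p = 0.0077) to 752, 805, 817 and 838, below every library at 22 °C, which held 916, 989, 1048, 1175 and 1216. That difference at 12 h was -0.41 ± 0.13 and missed the threshold (adjusted p = 0.073), and it was -0.12 (adjusted p = 0.72) with equal sums. The fall between 4 and 12 h turned to 0.091 (adjusted p = 0.70) when libraries were rescaled to equal sums, which moved the median of all genes in that contrast by 0.55.

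Ftl1 (chr7:45457944-45459884, minus strand), the light chain, fell by 4 and 12 h and was back by 24 h. It was 2167, 2359.7, 2599.6 and 3173 at 22 °C and 2012, 2314, 2314, 2619 and 2633 at 30 °C before LPS and 1114, 1232, 1301, 1326 and 1666 and 1438, 1593, 1774 and 1874 at 12 h. The change at 12 h was -0.95 ± 0.18 (adjusted p = 5.3e-05) and -0.51 ± 0.18 (adjusted p = 0.022), and no library at 12 h overlapped 0 h at either temperature. By 24 h it was at 1497, 2310.0, 2661, 2906 and 2928 and 2248, 2562, 2570.0, 2673 and 2736, with rises since 12 h of 0.86 ± 0.17 (adjusted p = 6.0e-04) and 0.62 ± 0.18 (adjusted p = 0.012), the latter lost with equal sums. The 12 h call at 30 °C was lost without replicate 5 at 0 h or replicate 2 or 4 at 12 h, and when libraries were rescaled to equal sums or upper quartiles. At 4 h its fall at 22 °C was -0.56 ± 0.19 (adjusted p = 0.022, lost without replicate 1 at 0 h or replicate 3 at 4 h). At 30 °C it was -0.56 ± 0.18 (adjusted p = 0.015), and -0.36 ± 0.18 (adjusted p = 0.12) without the library that stood apart.

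The Ftl1 message is 99.6% identical to that of Ftl1-ps1 (chr13:74399694-74407346), a pseudogene copy, so reads of the pair are divided by kallisto and the single values are uncertain. Ftl1 made up 58.3% to 72.2% of the pair at 22 °C before LPS and 59.6% to 75.1% at 30 °C and 24 h. The share was 59.3% to 70.0% at 22 °C and 55.8% to 77.3% at 30 °C at 4 h. At 12 h it was 50.9% to 69.0% and 57.1% to 67.6%. Summed with its copy, a choice made after seeing the data, it still fell at 4 h (-0.53 ± 0.14, adjusted p = 0.0029, and -0.66 ± 0.13, adjusted p = 1.1e-04) and at 12 h (-0.81 ± 0.13 and -0.48 ± 0.13), and was -0.15 ± 0.13 and -0.01 ± 0.12 from its 0 h level at 24 h, at 22 °C and 30 °C.

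Tfrc (chr16:32608920-32632794, plus strand), the receptor that takes up transferrin-bound iron, sat close to the limit of detection, under 3 reads in 10 of 36 libraries. It was 3.59, 3.99, 4.72 and 11.2 at 22 °C and 1.66, 2.10, 2.43, 3.62 and 9.13 at 30 °C before LPS. It was 3.49 ± 2.56 and 5.30 ± 3.29 at 4 h (SD, n = 4 each) and 7.42 ± 0.651 (n = 5) and 8.86 ± 2.58 (n = 4) at 12 h, and 3.55, 7.14, 7.81, 9.06 and 13.5 and 6.79, 7.94, 8.87, 13.2 and 14.9 at 24 h. At 30 °C it rose by 12 h (1.19 ± 0.41, adjusted p = 0.020) and 24 h (1.38 ± 0.39, adjusted p = 0.0064). At 22 °C the changes were 0.41 ± 0.41 (adjusted p = 0.45) and 0.45 ± 0.41 (adjusted p = 0.43), and the changes at the 2 temperatures did not differ beyond error at 24 h (0.93 ± 0.56, adjusted p = 0.33). Both Tfrc calls were lost in exact permutation tests adjusted over 14 contrasts (0.30 at 24 h). The mean of Tfrc over the 36 libraries, 6.75, passed the filter of 5 through the later groups, with means of 7.42 to 10.3 at 12 and 24 h. In each group before LPS 1 library was far above the others, and 4 of the 5 at 30 °C were under 3 reads. The rise at 12 h was lost without 30 °C replicate 1 at 0 h or replicate 3 at 12 h (adjusted p 0.0031 to 0.072 over the libraries left out). Red cell precursors carry much transferrin receptor. The summed signal of 6 erythroid markers, 889 to 1676 and 702 to 2133 before LPS, was 482 to 1267 at 22 °C and 262 to 626 at 30 °C at 24 h. At 4 h the erythroid sum was 1513 to 2200.2 and 1366 to 2269, and at 12 h 924 to 2517 and 855 to 911. The part of these cells in the Tfrc values was not tested.

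Of 18 genes that set hepcidin through BMPs and HFE, 15 were tested. At 4 h the count was 5 up and 2 down for 22 °C, against 6 up and 2 down for 30 °C. The shares were 15.8% up and 13.6% down and 17.8% up and 14.6% down over all tested genes. The largest change was the fall of Hfe2, which encodes hemojuvelin, the BMP co-receptor needed for hepcidin expression: from 47.0 ± 18.4 (SD, n = 4) and 33.7 ± 3.30 (n = 5) before LPS it fell to 2.57 ± 3.64 (n = 4) and 1.02 ± 0.742 (n = 4), under 3 reads in 6 of 8 libraries, while Hamp rose. At 12 h it was 6.55 ± 5.14 at 22 °C (n = 5) and 18.1 ± 4.85 at 30 °C (n = 4). At 24 h Hfe2 ranged from 37.4 to 58.2 at 30 °C, above the whole range at 22 °C of 2.46 to 25.2, a difference of 1.86 ± 0.51 (adjusted p = 0.0088). Bmp2, the other main BMP ligand of liver endothelial cells, fell by 24 h at both temperatures (-3.03 ± 0.50 at 22 °C, adjusted p = 7.8e-06, and -1.34 ± 0.47 at 30 °C, adjusted p = 0.028).

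At 24 h 2 of the 15 were higher at 30 °C and 1 lower, near the 9.93% and 8.71% of all tested genes. Fgl1, a secreted liver protein that binds BMP6, rose after LPS at both temperatures and was 13856 ± 2226 at 30 °C against 7306 ± 1383 at 22 °C (SD, n = 5 each). This was a difference of 0.93 ± 0.13 (adjusted p = 2.0e-06) and an interaction of 0.96 ± 0.18 (adjusted p = 8.6e-04). Smad5, one of the SMAD proteins that carry the BMP signal, was lower, 6.56 ± 3.13 against 37.2 ± 11.2 (-2.36 ± 0.35, adjusted p = 7.1e-06). At 12 h, when Hamp was lower at 30 °C, 2 of the 15 were lower and none higher, beside 3.29% and 0.977% of all tested genes. They were Smad5 again (-1.34 ± 0.37, adjusted p = 0.029) and Tmprss6, the protease that cleaves hemojuvelin and so restrains hepcidin (-1.51 ± 0.33, adjusted p = 0.0050). Tmprss6 was 5.45 ± 2.00 (n = 4) against 17.2 ± 5.89 (n = 5) there.

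In the IL-6 arm, 6 of the 7 genes rose at 4 h at each temperature and none fell, beside rises in 15.8% of all tested genes at 22 °C and 17.8% at 30 °C. The median log2 changes were 2.63 at 22 °C and 2.42 at 30 °C against -0.10 and -0.04 over all genes. Socs3, the feedback inhibitor and a standard readout of STAT3 activity, rose by 4.76 ± 0.32 and 4.55 ± 0.31, and Stat3 itself by 2.63 ± 0.18 and 2.42 ± 0.17. Il6, named after its values were seen, rose by 3.49 ± 0.59 and 3.62 ± 0.56. By 24 h Socs3 was still above 0 h at both temperatures, and the difference between them was not beyond its error (0.03 ± 0.29, adjusted p = 0.96). Of the 7 genes, beside the same 9.93% and 8.71% of all genes, 1 was higher at 30 °C at 24 h, the shared receptor chain Il6st (0.74 ± 0.16, adjusted p = 0.0015), and 2 were lower, Stat3 (-0.69 ± 0.16, adjusted p = 0.0019) and the receptor Il6ra (-0.68 ± 0.24, adjusted p = 0.048). At 12 h Il6ra was lower at 30 °C (-1.13 ± 0.26, adjusted p = 0.0070), alone among the 7.

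Of 14 genes for iron uptake, storage and trafficking, 11 were tested. Steap4, a ferric reductase induced by inflammation, rose by 5.17 ± 0.28 at 22 °C and 5.54 ± 0.27 at 30 °C at 4 h, and Slc39a14, which imports iron that is not bound to transferrin, rose by 2.51 ± 0.25 and 2.89 ± 0.24. At 24 h 2 of the 11 were higher at 30 °C and 3 lower, beside 9.93% and 8.71% of all tested genes. Steap4 had come down to 740.1 ± 242 at 30 °C against 2731 ± 1099.9 at 22 °C (SD, n = 5 each), a difference of -1.84 ± 0.25 (adjusted p = 2.0e-06), and Slc39a14 differed by -0.82 ± 0.23 (adjusted p = 0.0097). Ncoa4, the receptor that delivers ferritin to lysosomes for iron release, was higher at 30 °C (0.83 ± 0.20, adjusted p = 0.0029). Of the 3 genes of the IRE-binding proteins and their control, Aco1 fell at 12 and 24 h at both temperatures, with changes of -1.53 ± 0.28 at 22 °C and -0.97 ± 0.27 at 30 °C by 24 h. Falls took in 14.4% to 20.6% of all tested genes there. Ireb2 rose by 12 h at 30 °C (19.3% of all tested genes up). From 12 to 24 h at 30 °C Ireb2 fell and Aco1 rose (9.52% down and 11.6% up). None of the 3 passed between temperatures in limma at any time, and 1 had an unadjusted p under 0.05, at 24 h.

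Of 10 tested genes for heme breakdown and transport, 3 were up and 3 down at 4 h for 22 °C (15.8% and 13.6% of all tested genes), against 4 up and 2 down for 30 °C (17.8% and 14.6%). Bach1, the heme-sensing repressor, and Spic, the factor of red-pulp-type macrophages, rose, and Spic did so by 4.11 ± 0.62 and 3.58 ± 0.58. Cd163, the macrophage receptor for hemoglobin bound to haptoglobin and one of the Kupffer cell markers, is named after its values were seen, and at 4 h, when Hp rose, it fell (-2.28 ± 0.78 at 22 °C and -2.20 ± 0.74 at 30 °C). At 24 h Cd163 was 0 to 13.1 at 22 °C and 2.33 to 39.6 at 30 °C, which overlap, with a difference of 2.00 ± 0.70 (adjusted p = 0.042), and 4 of these 10 libraries were under 3 reads. Slc46a1, a carrier of heme and folate, was also higher at 30 °C at 24 h (2.28 ± 0.47, adjusted p = 6.1e-04).

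Of 7 tested genes of heme synthesis, 4 fell by 12 h at 22 °C and 5 at 30 °C, beside 20.6% and 18.9% of all tested genes. Among them were Alad (-1.99 ± 0.40 and -3.26 ± 0.40) and Cpox (-1.94 ± 0.23 and -1.23 ± 0.23). Alas1, the rate-limiting enzyme in liver, was the 1 gene of the 7 that rose at 12 and 24 h at both temperatures. Rises took in 15.3% to 20.7% of all tested genes there. Alas1 went from 116 ± 35.8 (SD, n = 4) and 87.4 ± 29.6 (n = 5) before LPS to 838 ± 85.8 and 883 ± 152 at 24 h (n = 5 each). At 24 h Cpox and Uros were higher at 30 °C (1.10 ± 0.22, adjusted p = 3.5e-04, and 0.98 ± 0.29, adjusted p = 0.017) and none of the 7 was lower, beside 9.93% higher and 8.71% lower of all tested genes.

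**Figure D4:**
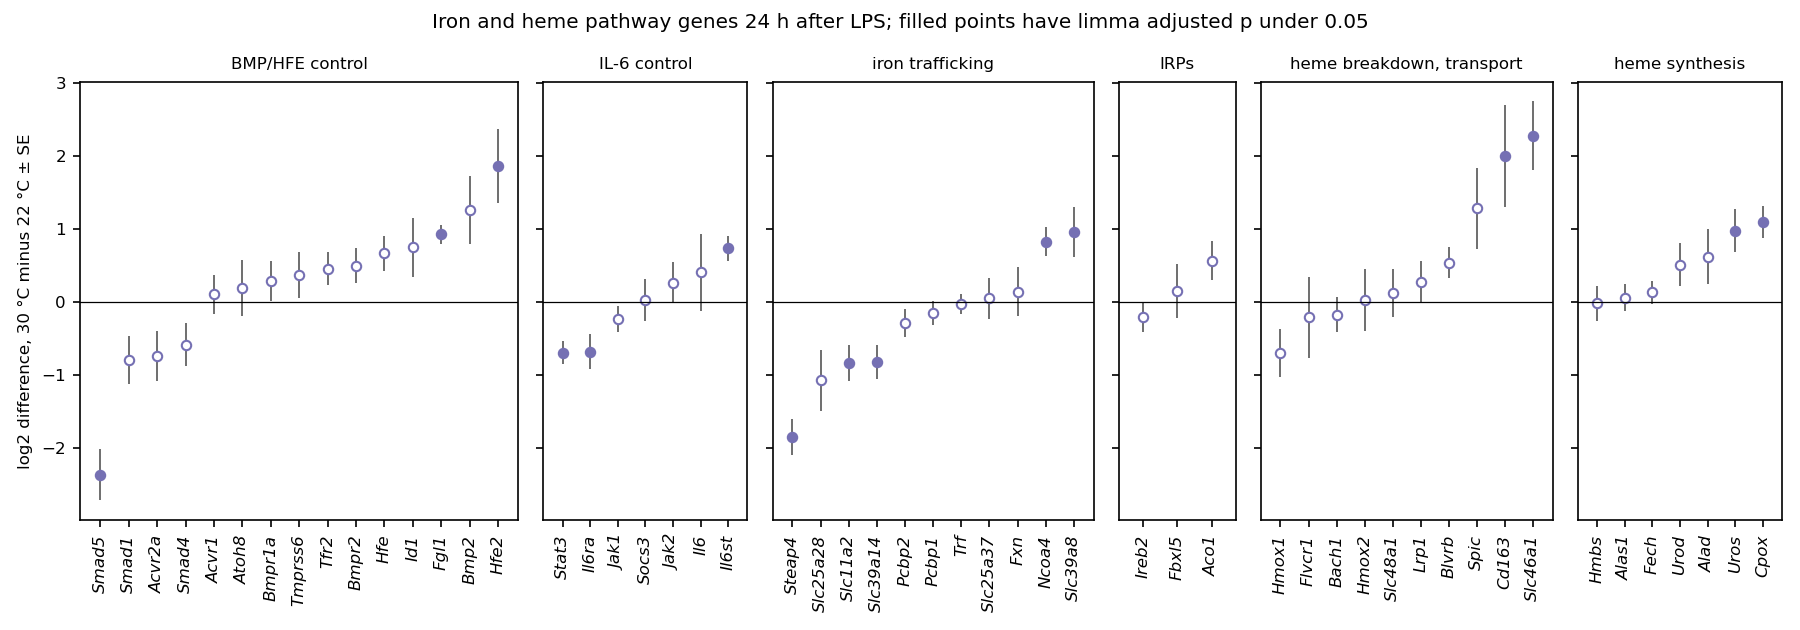
Log2 difference between 30 °C and 22 °C ± SE at 24 h for the tested genes of 6 iron and heme lists, ordered by size within a list; filled points have a limma adjusted p under 0.05. Higher at 30 °C are Fgl1, Hfe2, Il6st, Ncoa4, Slc39a8, Cd163, Slc46a1, Uros and Cpox, and lower are Smad5, Stat3, Il6ra, Steap4, Slc11a2 and Slc39a14.

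Over the 6 lists together, 53 genes were tested. Between temperatures none passed at 0 h (4 at an unadjusted p under 0.05) or 4 h (7), 3 were lower at 30 °C at 12 h (3.29% of all tested genes), and 9 were higher and 6 lower at 24 h (9.93% and 8.71%).

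The genes with the most similar course over the 8 groups were sought by the root mean square difference of centred log2 group means among tested genes with an official symbol, as a description over 8 points that share libraries. Nearest to Hamp was Ackr1 (0.19, where the spread of Hamp itself was 0.97), then Egfr (0.30). Hamp2 was a candidate and was not the nearest to Hamp. Nearest to Hamp2 were Gstm3 (0.24) and Cyp3a11 (0.32), with a spread of 1.71, in a search that did not include Hamp. Lcn2 ran closest to Saa3 and Saa1 (0.29 and 0.32, spread 2.56), acute-phase genes. Hp ran closest to Orm1 and Fgb (0.26 and 0.29, spread 1.36), and Hpx to Fga and Fgb (0.11 and 0.16, spread 1.16), other plasma proteins of the acute phase. Slc40a1 ran closest to Fam13a and Mtfp1 (0.17 and 0.23, spread 1.30), Cp to Slc30a7 (0.14, spread 0.54), Tfrc to Pdcd5 (0.12, spread 0.51), Fth1 to Chst15 (0.07, spread 0.26) and Ftl1 to Ecd (0.13, spread 0.34).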

How the data were processed

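Liver 3′-end libraries were made with a modified CEL-Seq2 protocol, with a barcoded poly-T primer carrying a molecular identifier and linear amplification, per the labels' protocols. Trimmomatic, kallisto and sleuth are named in the submitters' processing notes, and the sources used here give no genome build, identifier collapsing or scaling. The values are a deposited signal, the authors' scaled reads per base from sleuth, and not counts. The authors' second deposited signal, a column named tpm that sums to 757040 to 1746038 per library and so is no true TPM, was an alternative.

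One mean per group was fitted with limma-trend (limma 3.58.1, R 4.3.3) to log2(signal + 1) of genes whose signal averaged 5 or more over the 36 libraries, with Benjamini-Hochberg adjustment within each of 17 contrasts, two-sided, and tested on simulated data. Single genes were also compared by exact permutation tests, adjusted over 14 contrasts. Symbols were matched by Ensembl identifier in a gene-name table, and positions came from GENCODE M21. The 10 genes, the pathway and marker lists and the tests were chosen with earlier results of these data known. Every one of the 10 is named, plus up to 3 genes of smallest adjusted p per list and contrast. Counting error is not known per value, since signals are estimates, and 3 reads is used as the floor.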

Additional observations from a re-analysis of the deposited data

Results flagged for a closer look

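Of 80 combinations of gene and group examined for a sample far from the others, 4 stood out, and 4 would be expected by chance. Hpx in replicate 2 at 30 °C and 12 h was the lowest of its group at 7584, with the next at 10067. Tfrc was highest in replicate 4 at 22 °C before LPS, at 11.2 against 4.72 for the next, and in replicate 2 at 30 °C before LPS, at 9.13 against 3.62. Fth1 was also highest in replicate 2 at 30 °C before LPS, at 1049.5 against 922. The rise of Hpx by 24 h was larger at 30 °C than at 22 °C by a test of the difference itself, at 0.72 on the log2 scale. It was 1 call among 9 genes, beside 8.95% of all tested genes, and was lost when some single libraries were left out, as given above.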

How the results depend on the processing

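Settings other than a left-out library gave 1758 values for single genes, 39 of which changed sign, mostly between results that were not called. Of the 1758, 1652 kept their side of the threshold, 50 lost the call, 52 gained one and 4 turned sign (from a call or into one). Those 4 were the Hamp and Hamp2 sum, at -1.08 by 24 h at 22 °C, -1.31 by 12 h at 30 °C and -0.95 by 24 h at 30 °C, and Fth1 from 4 to 12 h at 30 °C, at 0.091 with equal sums. The sum mixes Hamp with Hamp2, which fell, and for Fth1 equal sums moved the median of all genes by 0.55. Leaving out 1 library gave 1620 values, of which 55 lost and 21 gained a call and none turned sign in or out of a call.

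The number of the 9 genes called between temperatures at 12 h was 2, and 1 without the low-value filter, with the tpm column, with upper-quartile or equal-sum rescaling, and without any 1 library (1 to 1). At 24 h it was 3, and 1 without the filter or with the 2 groups fitted alone (1 to 2 over left-out libraries). The count of interactions at 24 h was 1, and 2 with a pseudocount of 5, the tpm column, upper-quartile rescaling or the replicate block, 3 with a filter of 20, and 0 without a filter or with the groups alone (0 to 3). From 4 to 12 h the count was 3 at 22 °C, and 5 with equal sums or array weights (2 to 4), and 5 at 30 °C, and 8 with equal sums (4 to 6). From 12 to 24 h it was 2 at 22 °C, and 4 with a filter of 20 or the tpm column (2 to 3), and 5 at 30 °C, and 3 with equal sums (4 to 5). The causes were not tested. Counts since 0 h ran over left-out libraries from 6 to 7 at 4 h, 7 to 8 at 12 h and 6 to 6 at 24 h at 22 °C, and from 6 to 7, 5 to 7 and 6 to 7 at 30 °C, and the remaining counts were 0 to 0. The replicate block changed no other count beyond 1.5 times. Replicate numbers were not used as pairs, since same-numbered samples did not deviate together (correlations of -0.125 to 0.106, with 1 over 0.1). Summing near-copies was chosen after seeing the data. Depth limits Bmp6, Slc40a1 and Tfrc, which lie under 3 reads in 36, 16 and 10 of the 36 libraries.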
